A study of Mus musculus with 2 samples.

Results

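Interferon-stimulated genes are the transcripts that cells switch on when interferon reaches its receptors, and 40 of them were followed here in 2 poly(A)-selected RNA libraries of primary microglia, the macrophages that live in brain and spinal cord. They were chosen by symbol from textbook knowledge of the interferon response, and all 40 were found, each in a single row, among the 26607 rows of the deposited table. One library carries the label of a Per2-overexpression vector and the other the label of a control vector, and both were transfected primary cells. Each label stands on 1 library. Differences below therefore have no replicate check and no SD, and the labels could not be tested against each other. The series concerns Per2, a repressor of the circadian clock, and ferroptosis after spinal cord injury, and the comparison asks which interferon-stimulated transcripts differ between the labels. The labels give no strain, age, vector backbone or promoter, transfection reagent, time after transfection or pooling of animals. They name mouse as the organism, while the gene identifiers and the genome build in the submitters' processing notes are rat.

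Type I interferons bind the receptor pair IFNAR1 and IFNAR2 and activate ISGF3, a complex with STAT2 and IRF9 that binds the interferon-stimulated response element in the promoters of its targets. Interferon gamma acts through IFNGR1 and IFNGR2, and promoters with gamma-activated sites, such as those of IRF1 and the guanylate-binding proteins, respond to it. The products sense viral RNA, block viral entry, translation and replication, and include both amplifiers and brakes of the response. Microglia respond to type I interferon in ageing, injury and infection.

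Per2 transcript itself went against the labels, with 0.927 FPKM (fragments scaled to transcript length and to the mapped fragments of the library) in the library labelled Per2 overexpression against 6.90 FPKM in the library labelled control. Directions below are therefore those of the libraries as labelled (Per2-labelled and control-labelled). Depth is unknown, since FPKM values hold no counts here. Among the defining markers of microglia, Aif1 had 491 FPKM in the Per2-labelled library against 579 FPKM in the control-labelled library and Tmem119 had 27.5 against 21.5 FPKM. P2ry12 was near 0 in both, at 0.0802 FPKM in the Per2-labelled library against 0.650 FPKM in the control-labelled library, and the table lists Cx3cr1 at 0 for both libraries. Over 15 listed markers of microglia and macrophages the FPKM summed to 3077 in the Per2-labelled library and 3499 in the control-labelled library. Of the 13 compared, 11 had a log2 ratio below 0, beside 64.1% of all rows compared. At least 2-fold lower were 5 of the 13, beside 5.93% of all rows compared. They were Gpr34 (1.73 FPKM in the Per2-labelled library against 11.5 FPKM in the control-labelled library), Csf1r (21.7 against 51.5 FPKM) and the complement genes C1qa (71.6 against 257 FPKM), C1qb (22.3 against 116 FPKM) and C1qc (26.6 against 99.01 FPKM). Astrocyte markers, 9 of 9 detected, summed to 196 FPKM in the Per2-labelled library and 437 FPKM in the control-labelled library. All 9 had a log2 ratio below 0, and 5 were at least 2-fold lower (55.6%, beside 5.93% of all rows). Of 7 oligodendrocyte lineage markers compared, 6 had a log2 ratio below 0 and 3 were at least 2-fold lower (42.9%). With the length trend described below removed, 2.40% of all genes with a length were at least 2-fold lower. The counts were then 4 for microglia and macrophages, 2 for astrocytes and 1 for the oligodendrocyte lineage. Fibroblast and pericyte markers, of which 7 of 8 passed the expression filter, summed to 422 FPKM in the Per2-labelled library and 597 FPKM in the control-labelled library. The part of this shift in cell markers in the values below was not tested, and fewer cells of a type and less RNA per cell cannot be told apart in such bulk libraries.

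Values of the 40 genes lay on both sides of level. Oas1a, Ifitm3, Isg15 and Ifi27 stood highest in the Per2-labelled library relative to the control-labelled library, Ddx58 stood lowest, and the transcription factors of the response differed by less than 1.5-fold. No difference between roles was tested. Ratios are given as log2((FPKM Per2-labelled + 1)/(FPKM control-labelled + 1)), a scale that understates the difference of low genes, for genes whose mean over both libraries reached 1 FPKM. All but 1 of the 40 (39) passed that filter. Zbp1, a sensor of Z-form nucleic acids, did not, with 0.628 FPKM in the Per2-labelled library against 0.255 FPKM in the control-labelled library. A 2-fold difference on this scale took the place of a test. By it 4 of 39 genes were at least 2-fold higher in the Per2-labelled library (10.3%, beside 2.19% of the 12369 rows compared) and 1 was at least 2-fold lower (2.56%, beside 5.93% of all rows). The higher genes were Oas1a, Ifitm3, Isg15 and Ifi27, and the lower gene was Ddx58. Of the higher genes only Oas1a stayed past 2-fold after each library was rescaled to the same FPKM sum (TPM). On that scale 1.61% of all rows were at least 2-fold higher. Another 3 lay between 1.5-fold and 2-fold higher and 3 between 1.5-fold and 2-fold lower. The other 28 differed by less than 1.5-fold, a share (71.8%) close to that of all rows (71.5%). The median log2 ratio of the 39 was 0.11, while that of all rows was -0.18.

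**Figure D1:**
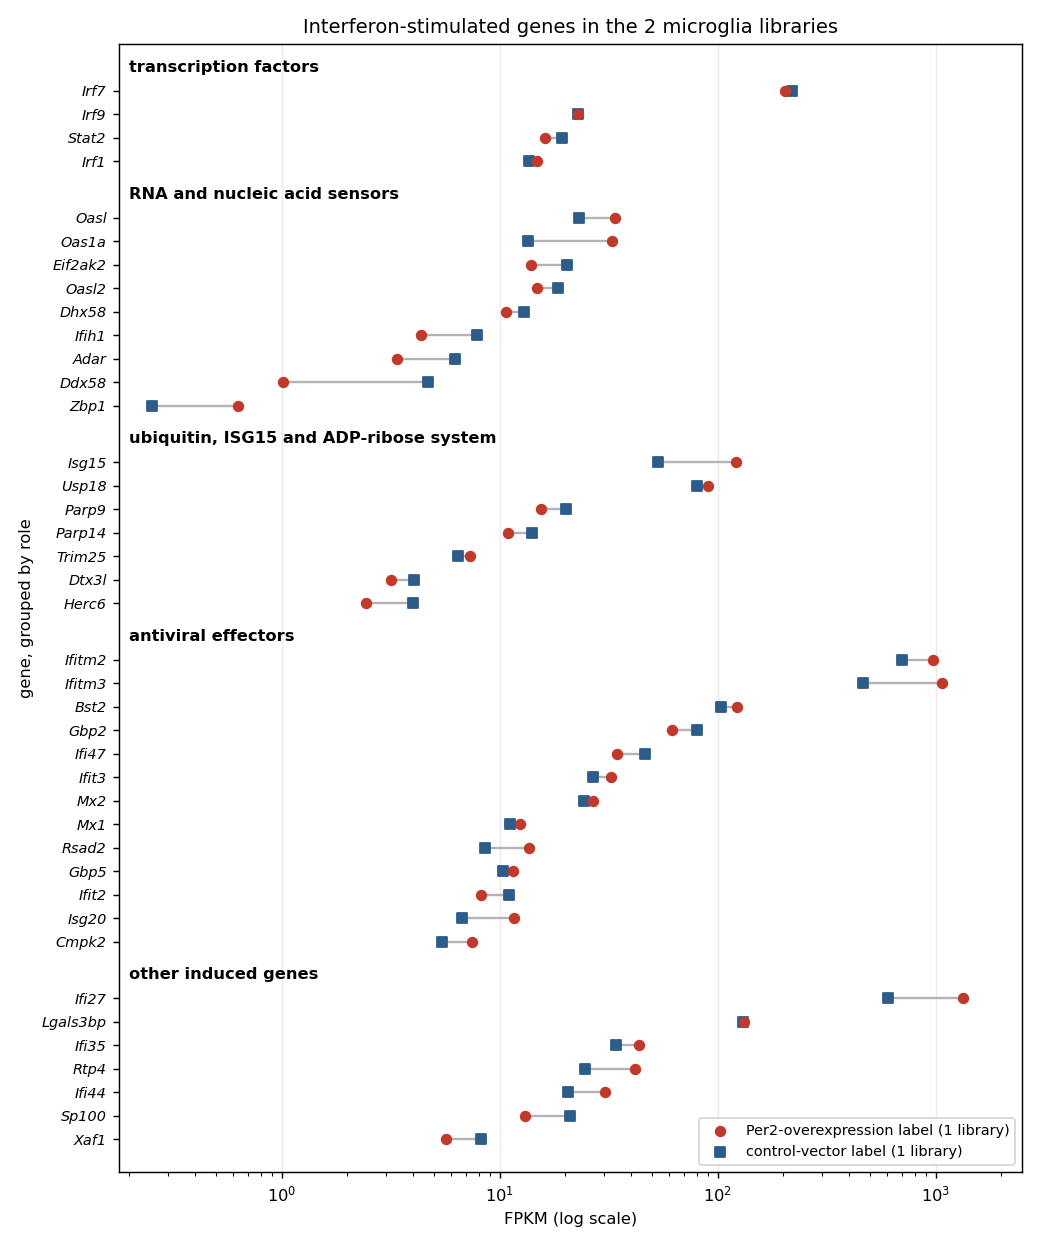
FPKM of each of the 40 genes on a log axis, 1 circle for the library labelled Per2 overexpression and 1 square for the library labelled control, grouped by role and ordered by mean level. The symbols of Oas1a, Ddx58, Isg15, Ifitm3 and Ifi27 lie farthest apart among the compared genes, and those of Irf7, Irf9 and Lgals3bp almost coincide.

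Some promoters of these genes carry matches to the interferon-stimulated response element, and a few are shown from genes on either side of the comparison. They are mouse sequences (RefSeq, GRCm38.p6), printed for genes of the same symbol, while the deposited values were made on a rat build. Of the 40 genes, 30 had a promoter window in the table, running from 250 bases before to 50 bases after the annotated start. Each line gives a stretch of 120 bases from the part of the window before the start, 5′ to 3′ on the gene's strand, with matches to the response element core in capitals (TTTC and TTTC with any 2 bases between them, or GAAA and GAAA on the other strand). Oas1a, at chr5:120907526-120907645 on the minus strand, and Isg15, at chr4:156200826-156200945 on the minus strand, were at least 2-fold higher in the Per2-labelled library. Rsad2, at chr12:26456508-26456627 on the minus strand, and Ifit3, at chr19:34583335-34583454 on the plus strand, were higher by less. Gbp2, at chr3:142620543-142620662 on the plus strand, and Stat2, at chr10:128270248-128270367 on the plus strand, had ratios below 0, and that of Stat2 was above 0 with the length trend described below removed.
Oas1a: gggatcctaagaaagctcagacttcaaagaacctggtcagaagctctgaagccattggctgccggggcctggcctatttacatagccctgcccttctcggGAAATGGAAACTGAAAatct
Isg15: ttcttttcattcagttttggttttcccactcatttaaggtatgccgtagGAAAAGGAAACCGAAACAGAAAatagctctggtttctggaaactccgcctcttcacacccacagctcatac
Rsad2: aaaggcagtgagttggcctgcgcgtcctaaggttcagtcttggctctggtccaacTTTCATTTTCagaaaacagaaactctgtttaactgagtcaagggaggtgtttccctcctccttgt
Ifit3: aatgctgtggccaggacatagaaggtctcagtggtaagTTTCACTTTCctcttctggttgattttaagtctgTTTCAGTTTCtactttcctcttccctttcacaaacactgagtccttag
Gbp2: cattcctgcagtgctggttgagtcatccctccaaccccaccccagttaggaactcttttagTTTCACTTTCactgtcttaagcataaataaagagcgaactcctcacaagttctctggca
Stat2: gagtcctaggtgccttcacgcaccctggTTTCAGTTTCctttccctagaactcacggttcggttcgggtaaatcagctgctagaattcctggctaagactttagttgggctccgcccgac

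Matches overlap in Isg15, where 3 fall in a run of repeated GAAA units, and in Oas1a, where 2 do. Searched on both strands over the whole 300-base window, the core was present in 13 of the 30 genes (43.3%), against 3.99% of the 27025 genes with a window. The gamma-activated site (TTCNNNGAA, its own reverse complement) was present in 10 of 30 (33.3%), against 9.55% of all genes. Both were present in 5 of the 30 genes, against 0.614% of all genes, namely Bst2, Eif2ak2, Gbp5, Ifitm3 and Oas1a. The 13 genes with a response element core had log2 ratios from -1.50 (Ddx58) to 1.21 (Oas1a), with a median of 0.24, 8 above 0 and 5 below. The 17 without one had ratios from -0.72 (Adar) to 0.71 (Isg20), with a median of -0.10, 7 above 0 and 10 below. The ranges overlap, and the difference was not tested. Ifitm2, Ifitm3, Isg15 and Bst2, all with transcripts under 1000 nt, are among the genes with a core. Once the ratios were adjusted for transcript length (described below), the middle-ranked gene with a core was Stat2, at 0.13. The middle-ranked gene without one was then Dtx3l, at 0.14, so the higher median with a core was not seen on that scale. A match describes letters in a mouse window and is not a measured binding site.

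The interferons themselves were almost undetected. Of 11 ligand genes analysed, 10 were listed at 0 in both libraries, among them interferon gamma and the interferon alpha genes. Ifnb1, interferon beta, was the exception, with 1.38 FPKM in the Per2-labelled library and 0.214 FPKM in the control-labelled library. That is 6.46-fold in the deposited values, but it lay under the expression filter and rests on very low values. Markers of cells known as strong sources of interferon were at 0 in part. Of 6 plasmacytoid dendritic cell markers, Siglech and Ly6d were listed at 0 in both libraries. Tcf4 had 4.38 FPKM in the Per2-labelled library against 8.12 FPKM in the control-labelled library, and Irf8 had 3.13 against 6.78 FPKM. Which cells the Tcf4 and Irf8 transcripts came from was not tested, so these values do not show that plasmacytoid dendritic cells were present. Spib (0.782 FPKM) and Ccr9 (0.0172 FPKM) were detected in the Per2-labelled library only, both under the expression filter. Of 8 markers of T and NK cells, 5 were listed at 0 in both libraries, Cd3e, Cd3d and Cd3g included. Cd8a had 2.81 FPKM in the Per2-labelled library against 16.0 FPKM in the control-labelled library, and Lck had 2.28 against 2.67 FPKM.

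The receptors and signalling genes of the pathway (receptor chains, kinases and Stat3) had lower values in the Per2-labelled library as deposited, none past 2-fold. All 10 genes compared had a log2 ratio below 0 (64.1% of all rows did), with a median of -0.33. After median-of-ratios centring 2 of them lay above 0. After TPM rescaling 1 was at least 2-fold lower, beside 11.4% of all rows. Jak1 had the lowest ratio as deposited (-0.94), with 19.2 FPKM in the Per2-labelled library against 37.7 FPKM in the control-labelled library. Ifnar1 had 22.8 FPKM in the Per2-labelled library against 32.5 FPKM in the control-labelled library, and Ifnar2 had 15.8 against 18.9 FPKM. Ifngr1 had 86.8 FPKM in the Per2-labelled library against 109 FPKM in the control-labelled library. With the trend with transcript length removed, 5 of the 10 lay above 0 (49.3% of all genes with a length did) and 5 below (50.7% of them).

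The transcription factors that carry the signal were nearly level. Irf7, the factor that amplifies interferon production, was the most abundant of them, with 204 FPKM in the Per2-labelled library and 219 FPKM in the control-labelled library. Irf9, the DNA-binding subunit of ISGF3, had 22.7 FPKM in the Per2-labelled library and 22.9 FPKM in the control-labelled library. Stat2, its partner, had 16.2 against 19.4 FPKM, and Irf1, induced by interferon gamma, had 14.8 against 13.7 FPKM. The 4 log2 ratios ran from -0.25 (Stat2) to 0.11 (Irf1), and the sign of each turned under at least 1 of the rescalings given in the closing section, so none has a direction here.

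The RNA sensors held both extremes of the family. Of 8 compared, 6 had ratios below 0, beside 64.1% of all rows, and 2 above, with a median of -0.41. Ddx58, which encodes the RNA helicase RIG-I, had 1.02 FPKM in the Per2-labelled library against 4.71 FPKM in the control-labelled library. Its log2 ratio of -1.50 was the lowest of the 39 genes, and 1.40% of all rows compared had a lower one. Ifih1, which encodes MDA5, the sensor of long double-stranded RNA, had 4.34 FPKM in the Per2-labelled library against 7.90 FPKM in the control-labelled library (log2 ratio -0.74). Dhx58, which encodes LGP2, the third helicase of this group, had 10.7 against 12.9 FPKM (-0.25). As deposited, there was 10.5 times as much Dhx58 as Ddx58 in the Per2-labelled library and 2.74 times as much in the control-labelled library. The first of these rests on a Ddx58 value near 1 FPKM. With the length trend described below removed, Ddx58 had a log2 ratio of -1.16 and Dhx58 one of -0.10.

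Eif2ak2, the kinase PKR that halts translation, had 13.9 FPKM in the Per2-labelled library against 20.4 FPKM in the control-labelled library (log2 ratio -0.52). Adar, which edits adenosine to inosine and keeps self RNA from being sensed, had 3.39 against 6.25 FPKM (-0.72). The oligoadenylate synthetase family split. Oas1a, whose product makes the activator of RNase L, had 32.7 FPKM in the Per2-labelled library against 13.5 FPKM in the control-labelled library. Its ratio of 1.21 was the highest of the 39 and ranked 145 among all rows compared. Oasl, a family member without synthetase activity that assists RIG-I in human cells, had 33.9 FPKM in the Per2-labelled library against 23.0 FPKM in the control-labelled library (0.54). Oasl2 had 14.9 against 18.4 FPKM (-0.29). Oas1a stood at 2.20 times the level of Oasl2 in the Per2-labelled library and at 0.735 times in the control-labelled library. The rodent Oas1 genes are a cluster of close copies, so reads could be shared among them and the value of Oas1a is uncertain.

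Genes of the ISG15 and ADP-ribose system were mixed, with Isg15 alone past 2-fold. Isg15, a ubiquitin-like modifier, had 121 FPKM in the Per2-labelled library against 53.0 FPKM in the control-labelled library (log2 ratio 1.18). Usp18, which removes ISG15 and restrains the type I receptor, had 89.9 against 80.7 FPKM. Herc6, the ligase that attaches ISG15 in mouse, had 2.44 FPKM in the Per2-labelled library against 4.01 FPKM in the control-labelled library (-0.54). As deposited the modifier was higher, its ligase was lower and its protease differed by 1.11-fold. Isg15 (756 nt) and Herc6 (4767 nt) differ in transcript length. With the length trend described below removed they had 0.64 and -0.15, and the values of Herc6 are low in both libraries. Trim25, a ubiquitin ligase described for RIG-I, had 7.31 against 6.45 FPKM. Parp9 and Dtx3l, whose products form a complex, had 15.5 against 20.2 FPKM and 3.16 against 4.04 FPKM. Parp14, a mono-ADP-ribosyltransferase, had 10.9 FPKM in the Per2-labelled library against 14.0 FPKM in the control-labelled library.

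Antiviral effectors made up the largest role, with 13 genes. Of these, 10 had a ratio above 0 (35.9% of all rows did) and 3 below, with a median of 0.24. After TPM rescaling, with the median of all rows at -0.38, 7 were above 0 and 6 below. Above the median of all rows were 10 of the 13, both as deposited and after TPM rescaling. With the length trend removed 8 were above 0 and 5 below, where 49.3% of all genes with a length were above 0. On that scale the counts above and below were 4 and 0 for the transcription factors and 1 and 6 for the RNA sensors. They were 5 and 2 for both the ISG15 system and the other induced genes. Ifitm3, a membrane protein that blocks the entry of enveloped viruses, had 1071 FPKM in the Per2-labelled library against 466 FPKM in the control-labelled library (log2 ratio 1.20). Its neighbour in function Ifitm2 had 970 against 697 FPKM (0.48). Ifitm3 was therefore at 1.10 times the level of Ifitm2 in the Per2-labelled library and at 0.669 times in the control-labelled library. The members of this family are near-identical in sequence, so their reads could be split differently and both values are uncertain.

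Isg20, an RNA exonuclease, had 11.6 FPKM in the Per2-labelled library against 6.73 FPKM in the control-labelled library (log2 ratio 0.71). Rsad2, the radical-SAM enzyme viperin, had 13.6 against 8.54 FPKM (0.61). Cmpk2, the mitochondrial nucleotide kinase encoded beside Rsad2, had 7.50 against 5.43 FPKM (0.40). These 3 genes thus lay on the higher side, and they stayed there under each alternative run.

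The remaining effectors were closer to level. Bst2, tetherin, which holds budding virions at the cell surface, had 122 FPKM in the Per2-labelled library against 103 FPKM in the control-labelled library. Mx1 and Mx2, dynamin-like GTPases, had 12.4 against 11.1 FPKM and 26.9 against 24.4 FPKM. Their relative level was nearly the same, with Mx2 at 2.17 times Mx1 in the Per2-labelled library and 2.19 times in the control-labelled library. The tetratricopeptide genes Ifit3 and Ifit2, which bind foreign RNA or its binders, diverged, with 32.4 against 26.9 FPKM for Ifit3 and 8.21 against 11.0 FPKM for Ifit2.

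GTPases that respond mainly to interferon gamma had ratios on either side of 0. Gbp2 had 61.5 FPKM in the Per2-labelled library against 80.1 FPKM in the control-labelled library (log2 ratio -0.38). Ifi47, an immunity-related GTPase, had 34.4 against 46.4 FPKM (-0.42). Gbp5, which promotes inflammasome assembly, had 11.5 against 10.4 FPKM (0.14), and its ratio was below 0 after rescaling to TPM.

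Among the other induced genes, Ifi27 was the most abundant transcript of the whole set in the Per2-labelled library. Ifi27, a small mitochondrial or nuclear membrane protein, had 1334 FPKM in the Per2-labelled library against 604 FPKM in the control-labelled library (log2 ratio 1.14). Rtp4, a chaperone of receptors, had 41.9 against 24.7 FPKM (0.74), and Ifi44 had 30.5 against 20.5 FPKM (0.55). Ifi35 had 43.4 FPKM in the Per2-labelled library against 34.3 FPKM in the control-labelled library. Lgals3bp, a secreted galectin ligand, was at 131 FPKM in the Per2-labelled library and 130 FPKM in the control-labelled library. Sp100, a component of nuclear bodies, had 13.0 against 20.9 FPKM (-0.65), and Xaf1, a pro-apoptotic factor, had 5.67 against 8.19 FPKM (-0.46).

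A few abundant genes set the summed level of the family. The 40 genes summed to 4607 FPKM in the Per2-labelled library, or 0.606% of all FPKM, and to 2905 FPKM in the control-labelled library, or 0.44%. Ifi27, Ifitm3, Ifitm2, Irf7 and Lgals3bp gave 80.5% of that sum in the Per2-labelled library and 72.8% in the control-labelled library. Without them the sums were 896 FPKM in the Per2-labelled library and 789 FPKM in the control-labelled library. The median gene of the 40 had 15.2 FPKM in the Per2-labelled library and 19.8 FPKM in the control-labelled library, so the sum and the median stood in opposite order.

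**Figure D2:**
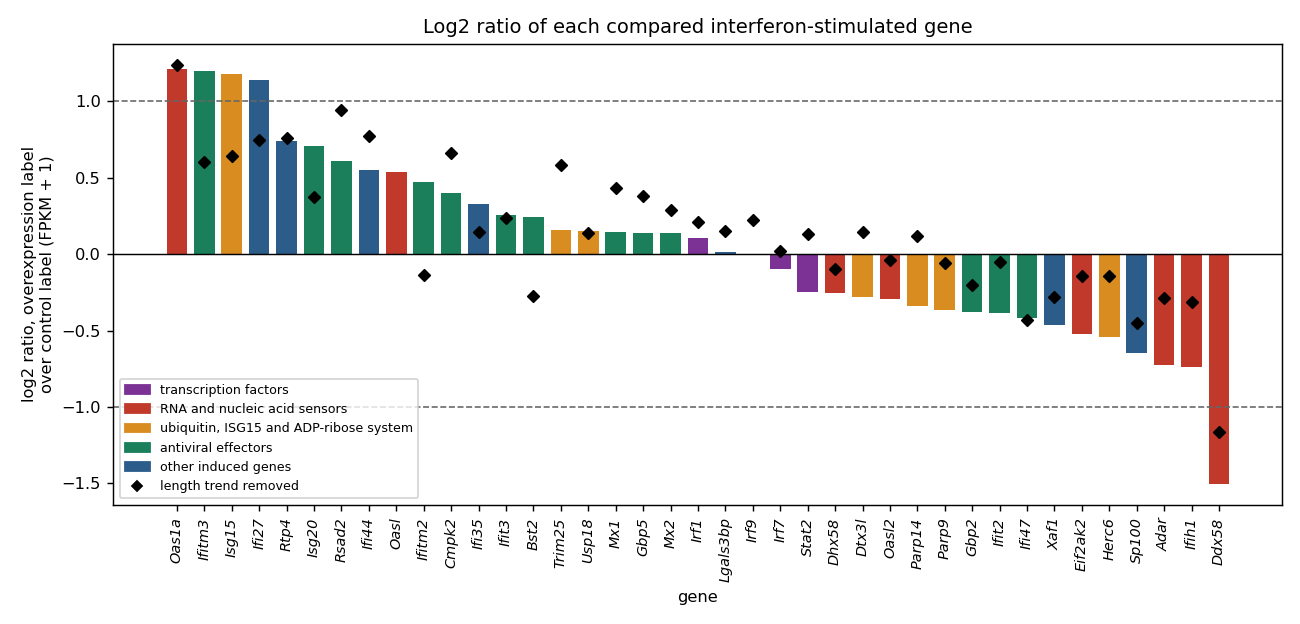
Log2 ratio of the Per2-labelled over the control-labelled library on FPKM + 1 for the 39 genes compared, as bars coloured by role, with black diamonds for the same value after the trend with transcript length was removed (no diamond for Oasl, which had no length). Dashed lines mark 2-fold. Oas1a (1.21 and 1.24) and Ddx58 (-1.50 and -1.16) lie past the lines on both scales, whereas Ifitm3, Isg15 and Ifi27 do so only as bars.

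The ratios of these genes moved with transcript length, as those of all genes did. The length used for a gene was that of its longest coding transcript in mouse (GENCODE M21), found by symbol. Across 38 genes of the set Spearman's rho between log2 ratio and length was -0.63, and across 10139 genes it was -0.50. These are correlations across genes measured in the same 2 libraries, not independent replicates. The 5 genes under 1000 nt (Ifitm2, Ifitm3, Isg15, Bst2 and Ifi27) all had ratios above 0, with a median of 1.14, where the 533 genes of that length had a median of 0.55. Of the 8 genes of at least 4000 nt, 7 had ratios below 0 and the exception was Trim25. Their median was -0.43, beside -0.42 for the 3221 genes of that length.

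With the length trend removed, fewer genes were past 2-fold. The number was then 1 of 38 in each direction, beside 1.35% of all genes higher and 2.40% lower, and the genes were Oas1a (log2 ratio 1.24) and Ddx58 (-1.16). Isg15 had 0.64, Ifitm3 0.60 and Ifi27 0.75 on this scale. Rsad2 (0.94), Ifi44 (0.77), Rtp4 (0.76) and Cmpk2 (0.66) then stood above Isg15. Bst2 (-0.27) and Ifitm2 (-0.14) changed sign to below 0, and all 4 transcription factors lay above 0, from 0.02 (Irf7) to 0.22 (Irf9). Of the 7 RNA sensors with a length, 6 stayed below 0 and Oas1a above. The median of the 38 genes was 0.14, beside -0.01 for all genes with a length.

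**Figure D3:**
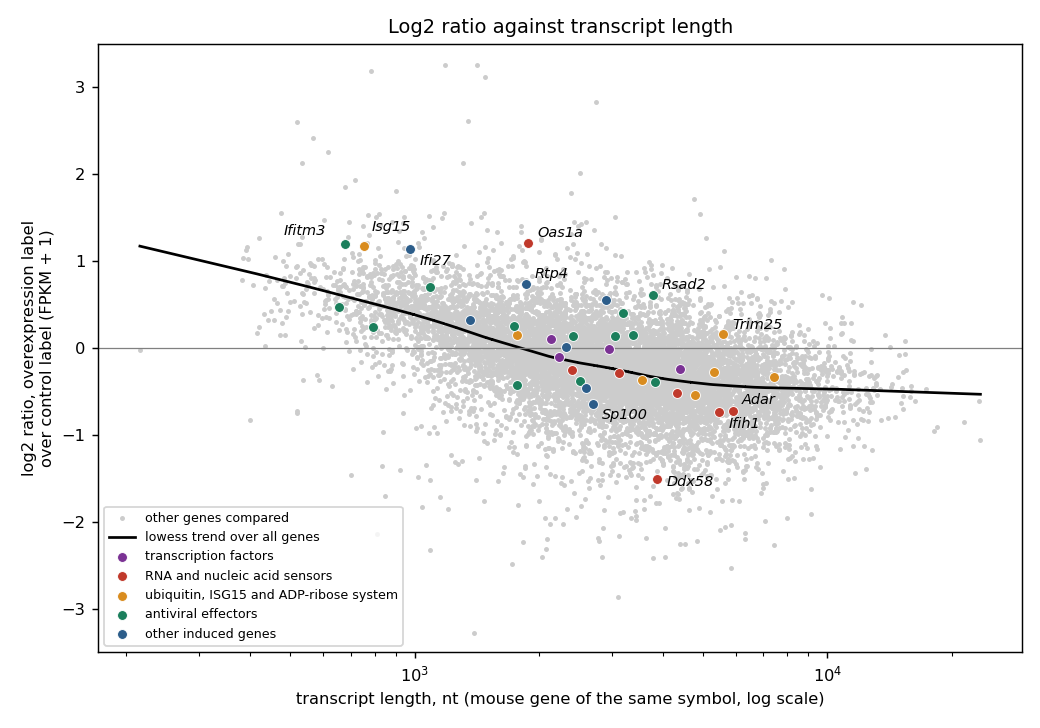
Log2 ratio (Per2-labelled over control-labelled library, FPKM + 1) against transcript length on a log axis for 10139 genes, with the interferon-stimulated genes coloured by role and the lowess trend as a black line. The short transcripts Ifitm3, Isg15 and Ifi27 lie at the high left end of the trend, Oas1a and Rsad2 lie above it, and Ddx58 lies below it.

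Some genes of the set are neighbours. In the mouse annotation (RefSeq, GRCm38.p6) 4 adjacent pairs of protein-coding genes were both in the set, and 3 of them had ratios of the same sign. Rsad2 and Cmpk2 had 0.61 and 0.40, Dtx3l and Parp9 had -0.28 and -0.36, and Parp14 had -0.34 beside Dtx3l. Ifit2 (-0.39) and Ifit3 (0.26) were the pair of opposite sign. Dtx3l is shared by the pairs with Parp9 and Parp14. With the length trend removed Dtx3l had 0.14 and Parp9 -0.058, so that pair was then of opposite sign too. The share of same-sign pairs among all neighbouring genes was not computed. No strand-marking step is described in the protocol, so reads from overlapping neighbours cannot be told apart.

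Upstream of the interferons, 12 of 15 sensing and adaptor genes had ratios below 0, beside 64.1% of all rows, and 9 of 15 did with the length trend removed. A single gene (6.67%, beside 5.93% of all rows) was past 2-fold, in the lower direction. That gene was Tlr7, the endosomal receptor for single-stranded RNA, with 36.0 FPKM in the Per2-labelled library against 84.0 FPKM in the control-labelled library. Tlr7 was not past 2-fold after median-of-ratios centring or with the length trend removed (-0.86). Tbk1, a kinase that activates IRF3, had 9.13 against 17.4 FPKM. Its relative Ikbke had 4.22 against 2.36 FPKM, and Irf3 had 31.9 against 25.5 FPKM.

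The brakes of the pathway went both ways. Socs1, an inhibitor of JAK kinases induced by interferon, had 23.7 FPKM in the Per2-labelled library against 10.1 FPKM in the control-labelled library (log2 ratio 1.16, and 1.38 with the length trend removed). Socs3, an inhibitor of signalling through gp130 cytokine receptors, had 12.5 against 28.3 FPKM (-1.12, and -0.94 with the length trend removed). Ptpn6, the phosphatase SHP-1 of blood cells, had 36.2 against 73.7 FPKM (-1.004). The median of the 10 genes in this list was -0.51, and Socs1 on the higher side and Socs3 and Ptpn6 on the lower side were the members past 2-fold, beside 2.19% of all rows higher and 5.93% lower. Socs1 was not past it after TPM rescaling, nor Socs3 and Ptpn6 after median-of-ratios centring.

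Further interferon-induced genes lay on both sides of 0. Of these, 34 were compared (Psmb8, Psmb9 and Tap1 stand also in the list on MHC class I loading), and 2 were past 2-fold, both lower in the Per2-labelled library (5.88%, beside 5.93% of all rows). The 2 were Pml (0.921 FPKM in the Per2-labelled library against 3.44 FPKM in the control-labelled library) and Parp12 (6.59 against 16.5 FPKM). Neither was past 2-fold with the length trend removed (-0.82 for Pml and -0.94 for Parp12) or with a pseudocount of 5. After median-of-ratios centring 3 genes were past 2-fold on the higher side and 2 on the lower, beside 4.27% and 3.78% of all rows. The median log2 ratio of the 34 was -0.17, beside -0.18 for all rows. Cxcl10, a chemokine for T cells, had 49.8 FPKM in the Per2-labelled library against 27.4 FPKM in the control-labelled library, and Ube2l6, the conjugating enzyme of ISG15, had 75.5 against 40.3 FPKM. Genes of MHC class I loading and the immunoproteasome, which interferon gamma also induces, had a median of 0.32 over 11 genes with 0 past 2-fold. After TPM rescaling the median was 0.043 over 12 genes, since Nlrc5 then passed the filter, so these medians cover different genes. Nuclear factor kappa B response genes had a median of 0.13 over 18 (-0.071 after TPM rescaling). Past 2-fold were 3 of them on the higher side, beside 2.19% of all rows, and 2 on the lower, beside 5.93%. After TPM rescaling the numbers were 1 higher and 2 lower, beside 1.61% and 11.4% of all rows. No difference between these lists and the 40 genes was tested.

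**Figure D4:**
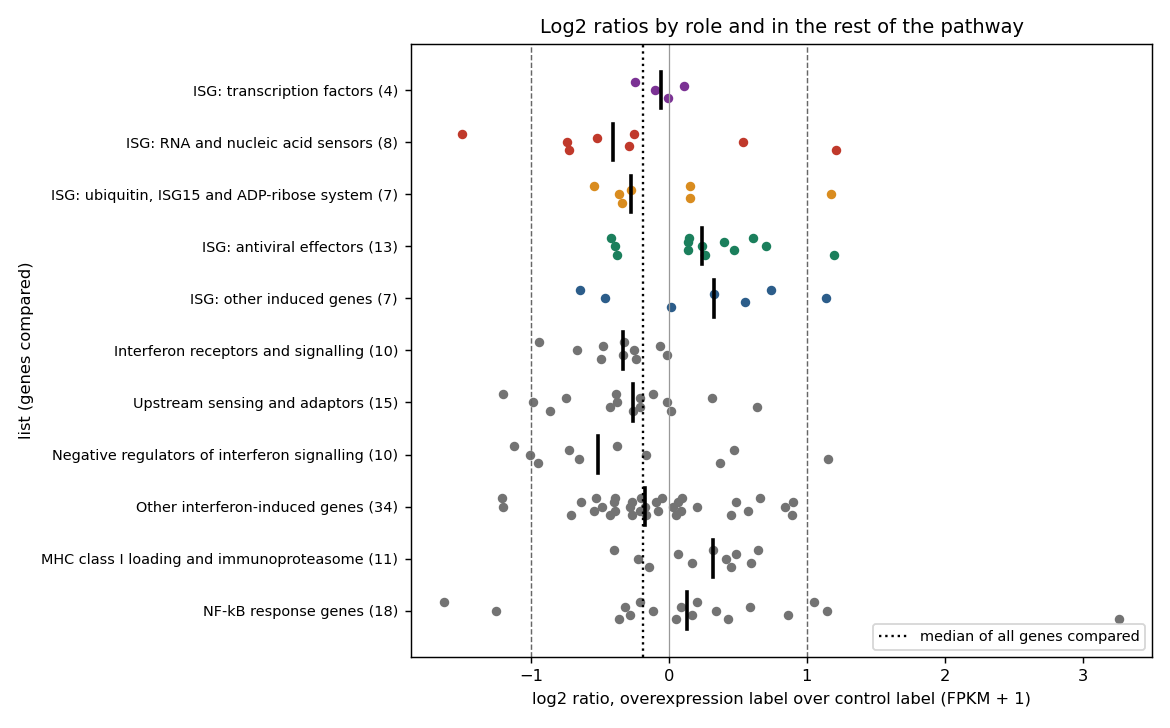
Log2 ratio (Per2-labelled over control-labelled library, FPKM + 1) of each compared gene, by role within the 40 interferon-stimulated genes and by list for the rest of the pathway, with the number of genes in brackets, black bars for medians, dashed lines at 2-fold and a dotted line at the median of all genes compared (-0.18). Antiviral effectors have a median of 0.24 and RNA sensors one of -0.41, and the 10 receptor and signalling genes lie below 0 as plotted.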

How the data were processed

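Total RNA was extracted with TRIzol, poly(A) RNA was selected and cDNA was primed with random hexamers, per the labels' protocols. The authors deposited 1 table of FPKM values, 1 per gene and library. The submitters' processing notes list HISAT2, StringTie, DESeq2 and edgeR and the rat build Rnor_6.0. Their versions, order and filters: not given in the sources used here. Among 1286 genes between 0 and 0.3 FPKM in both libraries, the commonest ratio was shared by 6, so no step of 1 read was found and depth is unknown.

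Columns were assigned by library name. Log2 ratios used a pseudocount of 1 and rows with a mean of at least 1 FPKM. A 2-fold rule replaced a test, as each group is 1 library. The length trend was a lowess fit on log2 length (span 0.3, statsmodels 0.14.6), over the 82.0% of compared rows with a length. It also recentres the ratios. Ratios and fit were checked on simulated data. The 40 genes and all lists were chosen by textbook role with earlier results of these data known. All 40 genes could be named, and of other lists those past 2-fold, the most abundant and those of defining role. Alternatives were other pseudocounts, filters and scalings, the length adjustment and summing rows of a symbol.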

Additional observations from a re-analysis of the deposited data

How the results depend on the processing

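All of these values rest on 1 library per label, so no setting measures the spread between cultures, and depth cannot be judged from FPKM. Rescaling to TPM moved the median of all rows by -0.19 and median-of-ratios centring moved it by 0.18. The median of the interferon-stimulated genes was -0.085 after TPM rescaling and 0.31 after centring. Relative to the median of all rows it was 0.29 higher as deposited, 0.29 after TPM rescaling, 0.31 after centring and 0.15 with the length trend removed. With a pseudocount of 5 the number at least 2-fold lower was 0 (beside 1.33% of all rows), since Ddx58 then had -0.69. With the filter at 5 FPKM it was also 0 (beside 4.53% of all rows), since Ddx58 did not pass that filter. Only 1 gene, Oas1a, was at least 2-fold higher after TPM rescaling (beside 1.61% of all rows) and with the length trend removed (beside 1.35%). TPM rescaling gave Isg15 0.98, Ifitm3 0.99 and Ifi27 0.94. It turned the sign of Irf1 (-0.085), Usp18 (-0.048), Trim25 (-0.022), Mx1 (-0.043), Mx2 (-0.062), Gbp5 (-0.051) and Lgals3bp (-0.19). Centring turned Irf7 (0.12) and Irf9 (0.20). Removing the length trend turned Irf7 (0.023), Irf9 (0.22), Stat2 (0.13), Parp14 (0.12), Dtx3l (0.14), Bst2 (-0.27) and Ifitm2 (-0.14). A pseudocount of 0.1, no filter, summed rows and, chosen after seeing the data, no pseudocount each left 4 higher and 1 lower. Over all rows the shares higher and lower were then 3.34% and 10.5% with the pseudocount of 0.1. They were 1.65% and 4.13% with no filter, 2.17% and 5.88% with summed rows and 3.44% and 11.1% with no pseudocount. No paired analysis was possible because each label has 1 library.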
